A study of Oreochromis niloticus with 6 samples.

Results

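The gluconeogenic enzymes of Nile tilapia liver were described here locus by locus: phosphoenolpyruvate carboxykinase (PEPCK, genes pck1 and pck2), fructose-1,6-bisphosphatase (fbp1a, fbp1b and fbp2) and glucose-6-phosphatase (g6pca.1 and g6pca.2). Members were taken by gene name alone, as every locus of the deposited table named pck1, pck2, fbp1 or fbp2 with any suffix, or g6pc with any suffix. The rule found 9 loci with 7 symbols among 31872 loci. The fish were Genetically Improved Farmed Tilapia (GIFT, Oreochromis niloticus), a selectively bred farm strain, and liver RNA was sequenced in 6 libraries. The 3 libraries labelled CG came from control tanks with a dissolved oxygen (DO) of 5 mg/L. The 3 libraries labelled HG came from tanks in which nitrogen gas had lowered the DO to 0.7 to 0.8 mg/L, and all fish were sampled at 96 h. All fish had been fasted before the experiment began, and the labels name no other treatment. The paper and the labels disagree on the DO of the HG and on how many fish a tank held. It is not stated whether each library was made from 1 fish or from pooled fish, so the p-values measure only the spread between these libraries.

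Gluconeogenesis builds glucose from lactate, glycerol and amino acids, mainly in the liver, and runs most of glycolysis backwards. Glycolytic steps that cannot be reversed are bypassed by enzymes of its own. PEPCK makes phosphoenolpyruvate from oxaloacetate, in the cytosol through pck1 or in the mitochondrion through pck2, fructose-1,6-bisphosphatase removes a phosphate from fructose 1,6-bisphosphate, and glucose-6-phosphatase in the endoplasmic reticulum releases free glucose. In mammals, transcription of the cytosolic PEPCK gene rises with fasting, glucagon and glucocorticoids and falls with insulin.

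The study measured pck1 by qRT-PCR as well, with a pair of primers that are shown because this gene differed most of all members between the groups. Each is given 5′ to 3′, and no qRT-PCR value was used here.
pck1 forward: atccccaaaacaggcctcag
pck1 reverse: acgtacatggtgcgaccttt
Both primers have 20 bases, and G and C make up 55% of the forward and 50% of the reverse primer. Each is written in lower case with nothing marked, and their place in the transcript was not analysed here.

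Transcript levels are given as FPKM, fragments per kilobase of transcript scaled to library size, a unit that can be compared between genes. Differences compare HG with CG as log2 fold changes of FPKM + 1, in which low values appear to change less than they did. They were tested with limma over the 16423 loci that averaged 1 FPKM or more, with p adjusted by the Benjamini-Hochberg method, and a locus passed at an adjusted p under 0.05. Summed FPKM was between 459912 and 493870 per library, and 2852 to 3763 loci lay above 10 FPKM. CG-1 was the most deeply sequenced library, and the relative depth of the others was 0.712 to 0.933 of it. This was read from the commonest FPKM ratio between each library and CG-1 among loci very low in both. Library profiles correlated at 0.873 to 0.901 within CG, at 0.868 to 0.918 within HG and at 0.661 to 0.785 between the groups. A DE gene is a locus that passed and had a log2 fold change of 1 or more in either direction. Of these, 1155 were higher and 1567 lower in HG. With the libraries scaled by median of ratios this split turned to 1478 higher and 1244 lower, and the median of all loci moved from -0.14 to 0.00. Genes that hypoxia-inducible factors (HIF) are known to raise at low oxygen were lower in the libraries labelled HG at 12 of 15 tested loci, with a median log2 fold change of -1.70. Over all tested loci 12.1% were lower. Of the 12, ddit4, p4ha1b, p4ha2, epoa and a locus of mxi1 (MSTRG.12687) averaged under 1 FPKM in HG. They could be tested only if higher in CG and add no support to the count. The list also holds pdk1, a kinase that inhibits pyruvate dehydrogenase, which was higher at 7.83, 10.2 and 10.1 FPKM in HG against 2.96, 4.33 and 3.03 FPKM in CG (log2 fold change 1.23, limma adjusted p = 0.0112). ddit4, an inhibitor of growth signaling, stood at 589, 492 and 676 FPKM in CG and at 0.536, 0.295 and 0.0217 FPKM in HG. egln3, an oxygen-dependent prolyl hydroxylase that marks HIF for breakdown, stood at 375, 212 and 239 FPKM in CG and at 2.61, 1.81 and 1.86 FPKM in HG. ndrg1a, a stress-induced gene, stood at 384, 311 and 181 FPKM in CG and at 18.3, 14.7 and 21.2 FPKM in HG. None of these genes overlapped between the groups. The direction of the rest of the 12 loci, egln3 and ndrg1a among them, goes against the oxygen levels on the labels. Every result below is therefore given by label.

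All of the 9 gluconeogenic loci passed the minimum level and were tested. pck1 (mean 443 FPKM in CG, 0.0221 FPKM in HG) and fbp2 (2.70 and 0.0601 FPKM) reached it only through CG. With such HG levels a locus is tested only if it is higher in CG, so neither adds support to the counts that follow. Of the 9 loci, 5 were lower in the libraries labelled HG and none was higher: pck1, pck2, fbp1b and both loci named g6pca.2. Over all tested loci, 12.1% were lower and 8.27% higher. The same 5 were DE genes, against 16.6% of all tested loci. At 6 of the 9 loci, pck1 and fbp2 among them, every HG library lay below every CG library, which held for 27.0% of all tested loci. The median log2 fold change was -1.15 over the 9 loci and -0.14 over all tested loci. The count rested in part on single libraries and on scaling. Leaving out each library in turn gave 2 to 4 of 9, with 2 without CG-3 or HG-1 and 3 without CG-1, HG-2 or HG-3. The 4 without CG-2 were pck1, pck2, g6pca.2 (MSTRG.11370) and fbp2, which is not among the 5. With median of ratios scaling the count was 2 of 9, pck1 and pck2. In whole liver, fewer cells of a type and less RNA per cell cannot be told apart.

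**Figure D1:**
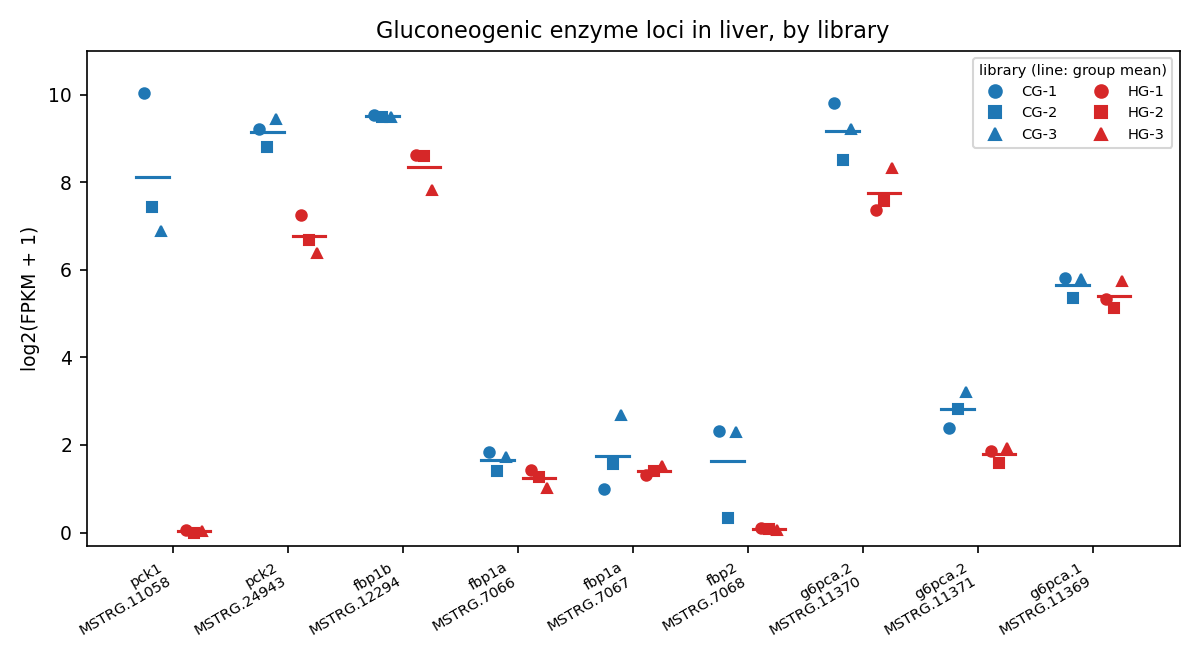
log2(FPKM + 1) of each of the 9 gluconeogenic loci in the 3 CG (blue) and 3 HG (red) libraries, with the symbol shape giving the replicate and a line at each group mean. The 3 HG values of pck1 lie at the bottom of the axis, the 3 CG values of fbp1b almost coincide, and the groups overlap for g6pca.1 and both loci named fbp1a.

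pck1, the cytosolic PEPCK, showed the largest difference among the members. Its level was 1042 FPKM in CG-1, 171 FPKM in CG-2 and 116 FPKM in CG-3, and it was 0.0475 FPKM in HG-1, listed at 0 in HG-2, and 0.0189 FPKM in HG-3. The lowest CG library stood 2450-fold above the highest HG library. The gene ranked 65th, 339th and 452nd by FPKM among all loci in the CG libraries and no higher than 24918 of 31872 in any HG library. In the CG libraries it was thus among the most abundant liver transcripts, and in HG it was close to the lowest values of the table. pck1 fell by 8.08 on the log2(FPKM + 1) scale (SE 0.76, 95% interval -9.89 to -6.27, limma adjusted p = 0.00166). Without CG-1, the library with the highest level, the log2 fold change was -7.12 (limma adjusted p = 0.000898).

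pck2 encodes the mitochondrial PEPCK. Its level was 595, 442 and 695 FPKM in CG-1, CG-2 and CG-3, with a mean of 578 ± 127 FPKM (SD, n = 3). In HG-1, HG-2 and HG-3 it was 152, 101 and 82.2 FPKM, with a mean of 112 ± 36.0 FPKM (SD, n = 3). The groups did not overlap, and the lowest CG library was 2.91-fold above the highest HG library. pck2 fell by 2.38 on the log2(FPKM + 1) scale (SE 0.30, 95% interval -3.10 to -1.66, limma adjusted p = 0.00398). Unlike pck1, it was well expressed in every HG library, at ranks of 365, 487 and 588 among all loci. Both PEPCK calls held without any one of the 6 libraries and under each scaling. They ended only under a linear model of the kind Ballgown fits, where the adjusted p was 0.124 for pck1 and 0.132 for pck2. That model shares no variance between loci, adds a covariate of summed expression per library, and found 2 DE genes in the whole table.

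The balance between the isozymes was read as the ratio of pck1 to pck2 FPKM in each library. This ratio was 1.75 in CG-1, 0.387 in CG-2 and 0.167 in CG-3. It was 0.000313 in HG-1, 0 in HG-2, where pck1 was listed at 0, and 0.000230 in HG-3. As a share of summed PEPCK FPKM, the cytosolic form made up 63.6% in CG-1, 27.9% in CG-2 and 14.3% in CG-3, but 0.0312% in HG-1, 0% in HG-2 and 0.0230% in HG-3. The cytosolic transcript was thus the more abundant of the isozymes in a single library, CG-1, and the mitochondrial transcript in the other 5 libraries. On a log2 scale, with 1 added to each FPKM, the ratio averaged -1.04 ± 1.71 in CG and -6.74 ± 0.42 in HG (SD, n = 3), a difference of -5.70. The groups did not overlap, and a two-sided exact permutation test gave p = 0.1, the smallest that 3 against 3 libraries allow. Since pck1 was near 0 in HG, the added 1 sets its term there, and the difference was -6.66 with 0.5 and -8.76 with 0.1 added instead. Without CG-1 it was -4.77.

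**Figure D2:**
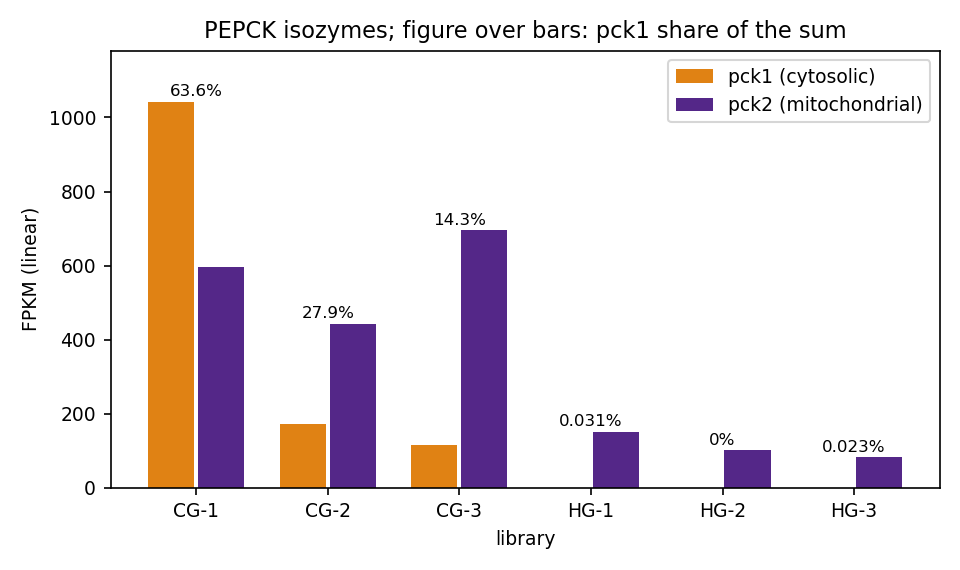
FPKM of pck1 (orange) and pck2 (purple) in each library on a linear axis that starts at 0, with the share of pck1 in their sum printed over each pair of bars. The pck1 bar exceeds the pck2 bar only in CG-1, where its share is 63.6%, and is too small to see in the 3 HG libraries.

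Summed over both genes, PEPCK transcript was 1638, 613 and 811 FPKM in the CG libraries and 152, 101 and 82.2 FPKM in the HG libraries. On a log2 scale the group means differed by -3.10 (two-sided exact permutation p = 0.1, the smallest possible). Nearly all of the PEPCK transcript left in HG was therefore pck2, at 99.97% or more of the sum in each library.

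fbp1b carried nearly all of the fructose-1,6-bisphosphatase transcript, between 98.4% and 99.5% of the sum in CG and between 98.7% and 99.2% in HG. It stood at 740, 722 and 717 FPKM in CG-1, CG-2 and CG-3, a mean of 726 ± 11.8 FPKM (SD, n = 3). It stood at 394, 388 and 227 FPKM in HG-1, HG-2 and HG-3, a mean of 336 ± 94.7 FPKM (SD, n = 3). The CG libraries were nearly equal, HG-3 was well below the other HG libraries, and the groups did not overlap. fbp1b fell by 1.15 on the log2(FPKM + 1) scale (SE 0.26, 95% interval -1.77 to -0.53, limma adjusted p = 0.0254). This call was close to the threshold: the adjusted p was 0.0703 without CG-1, 0.0618 without CG-2, 0.0636 without CG-3 and 0.0560 without HG-1. It was 0.0734 with median of ratios scaling, at a log2 fold change of -0.95.

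The other fructose-1,6-bisphosphatase loci were expressed at a few FPKM or less. fbp2, the form that mammals use mainly in muscle, was 3.96 FPKM in CG-1, 0.251 FPKM in CG-2 and 3.88 FPKM in CG-3, against 0.0825, 0.0598 and 0.0380 FPKM in HG. Every HG library was below every CG library, with CG-2 nearer to HG than to the other CG libraries. The log2 fold change was -1.56 (SE 0.56) and did not pass (limma adjusted p = 0.0950). At these low levels it depended on the pseudocount, with -2.13 at 0.5 and -3.49 at 0.1, neither of which passed. It passed without CG-2 (-2.22, limma adjusted p = 0.00872). The table holds fbp1a at a pair of loci, both with overlapping groups. The locus with annotated transcripts (MSTRG.7066) ranged from 1.65 to 2.59 FPKM in CG and from 1.02 to 1.69 FPKM in HG, with a log2 fold change of -0.42 (SE 0.23, limma adjusted p = 0.227). The locus known only as an assembled transcript (MSTRG.7067) ranged from 1.01 to 5.48 FPKM in CG and from 1.51 to 1.87 FPKM in HG, with a log2 fold change of -0.34 (SE 0.42, limma adjusted p = 0.597). Its sign rested on CG-3, since the value without that library was 0.13. In the RefSeq annotation fbp1a and fbp2 lie on the same chromosome with 1 gene between them, and related copies of this kind may share reads.

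g6pca.2 was the main glucose-6-phosphatase transcript. At its principal locus (MSTRG.11370) it was 890, 363 and 593 FPKM in CG-1, CG-2 and CG-3, a mean of 616 ± 264 FPKM (SD, n = 3). In HG-1, HG-2 and HG-3 it was 163, 190 and 318 FPKM, a mean of 223 ± 82.7 FPKM (SD, n = 3). The groups did not overlap, but they came close: CG-2 was only 1.14-fold above HG-3. The log2 fold change was -1.42 (SE 0.40, 95% interval -2.38 to -0.47, limma adjusted p = 0.0480). This call, too, was at the threshold, with an adjusted p of 0.121 without CG-1, 0.108 without CG-3, 0.150 without HG-1, 0.125 without HG-2 and 0.0540 without HG-3. Under median of ratios scaling it was 0.0587, at a log2 fold change of -1.22.

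A second locus named g6pca.2 (MSTRG.11371), made of an assembled transcript alone, was far lower. It was 4.27, 6.06 and 8.27 FPKM in CG and 2.62, 2.02 and 2.80 FPKM in HG, without overlap. The log2 fold change was -1.02 (SE 0.25, limma adjusted p = 0.0337), and the call held only without CG-1 when each library was left out in turn (adjusted p from 0.0290 to 0.0993 over the 6 fits). Leaving out CG-2 gave 0.0838, CG-3 0.0825, HG-1 0.0931, HG-2 0.0993 and HG-3 0.0747.

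g6pca.1 had the smallest fold change of the members. It was 54.8, 40.0 and 54.7 FPKM in CG and 39.1, 34.2 and 52.9 FPKM in HG, and the groups overlapped. Its log2 fold change of -0.25 (SE 0.26, limma adjusted p = 0.522) had a 95% interval from -0.86 to 0.36, which leaves room for changes of moderate size in either direction. It was -0.05 with median of ratios scaling, -0.42 without HG-3 and -0.11 without HG-2, and did not pass in any of these. With g6pca.2 lower, the share of g6pca.1 in glucose-6-phosphatase FPKM was 5.78% to 9.77% in CG and 14.2% to 19.1% in HG. The copies g6pca.1 and g6pca.2 match RefSeq genes that lie next to each other, so reads may have been shared between them.

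By enzyme step, summed fructose-1,6-bisphosphatase FPKM was 747, 726 and 729 in CG and 397, 391 and 230 in HG, a log2 difference of -1.15. Summed glucose-6-phosphatase FPKM was 949, 409 and 656 in CG and 204, 226 and 373 in HG, a log2 difference of -1.29. Neither step overlapped between the groups, and each gave a two-sided exact permutation p of 0.1, the smallest possible. The log2 difference was thus largest at the PEPCK step (-3.10), although the 3 steps were not tested against each other. Among the HG libraries the steps did not share an order. HG-3 was lowest for PEPCK and fructose-1,6-bisphosphatase and highest for glucose-6-phosphatase.

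The members differed widely in how much the 3 CG libraries varied. For pck1 the highest CG library was 8.96-fold above the lowest, with a coefficient of variation of 117%, and CG-1 was 6.09-fold above CG-2 and 8.96-fold above CG-3, whereas CG-2 and CG-3 differed by 1.47-fold. Set against loci of like level in CG (within 2-fold of its mean), the SD of its log2 values, 1.68, was larger than that of 95.5% of 202 loci. At its principal locus, g6pca.2 had a coefficient of variation of 42.9%, a highest to lowest ratio of 2.45 and an SD larger than that of 84.7% of 176 like loci, and CG-1 was its highest CG library as well. At the second locus of the gene CG-1 was the lowest.

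pck2 was ordinary by this measure. Its coefficient of variation in CG was 22.0%, with an SD larger than that of 53.1% of 179 like loci, and CG-3, the lowest for pck1, was its highest library. fbp1b was the most even, with a coefficient of variation of 1.62%, a log2 SD of 0.023 and none of 170 like loci with a smaller SD. In HG it was not even, with a coefficient of variation of 28.2% and an SD larger than that of 77.0% of 200 like loci. Some members of low level also spread widely. fbp2 ranged 15.8-fold over the CG libraries, with an SD larger than that of 94.7% of 7926 like loci, and fbp1a (MSTRG.7067) ranged 5.43-fold, with an SD larger than that of 89.6% of 7911.

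**Figure D3:**
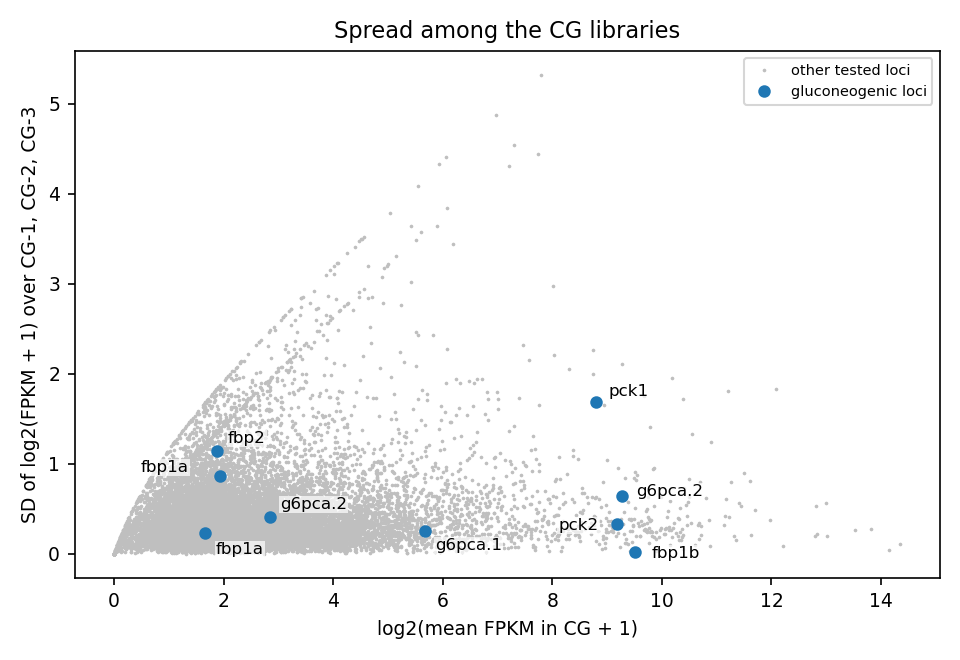
SD of log2(FPKM + 1) over the 3 CG libraries against the log2 mean FPKM in CG, for all tested loci (grey) and the 9 gluconeogenic loci (blue). At high expression pck1 lies at an SD of 1.68, above most loci, and fbp1b at 0.023 lies on the bottom edge.

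For the 5 members averaging 10 FPKM or more, the 3 most similar of 2398 named loci were found by Pearson's r over the 6 libraries. These 6 points share libraries and mostly the group difference, so r is a description. pck1 was most like si:ch73-335l21.4 (r = 0.999), jmjd6 (r = 0.999) and mtp (r = 0.998). jmjd6 encodes a Jumonji-domain oxygenase and stood at 30.1, 17.9 and 15.1 FPKM in CG, the same order as pck1, and at 1.89 to 2.36 FPKM in HG. pck2 was most like lpl (r = 0.994), the lipoprotein lipase gene, nop10 (r = 0.991) and kdr (r = 0.990), a receptor for vascular endothelial growth factor. The nearest to fbp1b were cx32.3 (r = 0.994), a gap junction gene, BHLHE40 (r = 0.993), a transcriptional repressor, and pfdn4 (r = 0.989), a prefoldin subunit. For g6pca.2 they were tagln2 (r = 0.997), rgl1 (r = 0.993) and cd82b (r = 0.989), and for g6pca.1 ifi30 (r = 0.953), rbm39b (r = 0.948) and znrf2a (r = 0.926). No gene was among these 3 for more than 1 member. Among the members themselves r ranged from 0.16 for fbp1b with g6pca.1 to 0.95 for fbp1b with pck2, and was 0.94 for pck1 with pck2.

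Around the members, the list of substrate entry and shuttles had 21 tested loci, of which 2 were higher and 2 lower, shares near those of all tested loci (8.27% and 12.1%), with a median log2 fold change of 0.10. pcxb, a pyruvate carboxylase that supplies oxaloacetate to PEPCK, was 40.3, 48.5 and 190 FPKM in CG and 22.7, 29.3 and 17.7 FPKM in HG. These groups did not overlap, but the log2 fold change of -1.62 did not pass (SE 0.58, limma adjusted p = 0.0944), with CG-3 far above the other CG libraries. slc37a4a, the transporter that brings glucose 6-phosphate to glucose-6-phosphatase, had a log2 fold change of 0.10 (SE 0.42, limma adjusted p = 0.881), and a further locus named SLC37A4 was too low to test. Lactate dehydrogenase genes ldha (-2.20) and ldhba (-2.10) were lower. gpd1a (1.48), the glycerol 3-phosphate dehydrogenase through which glycerol enters, and got2a (0.78), a mitochondrial aspartate aminotransferase, were higher.

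Of 13 tested loci for the reversible steps that gluconeogenesis shares with glycolysis, 6 were lower and 1 was higher (median -0.60). Over all tested loci, 12.1% were lower and 8.27% higher. eno1a, an enolase, fell by 5.79 on the log2 scale, and gapdhs, a glyceraldehyde 3-phosphate dehydrogenase, by 3.94. The aldolase gene aldocb (-5.01) and the merged locus of exosc1 and pgam1b (-3.38) were lower too. The one that rose was pgam1a, a phosphoglycerate mutase (1.08). Of 17 tested loci for the opposing glycolytic steps, 9 were lower and 1 was higher (median -0.90). Of the lower loci, pfkfb4b, pfkpa, pfkfb3 and a locus each of hk1 (MSTRG.17031) and hk2 (MSTRG.11187) averaged under 1 FPKM in HG. They could be tested only if higher in CG and add no support to the count. Phosphofructokinase genes pfkpa (-2.36) and pfkla (-1.55), the hexokinase gene hk1 (-1.51) and pfkfb4b (-2.34), which makes the activator fructose 2,6-bisphosphate, were lower, and tigara (0.78), whose mammalian counterpart breaks that activator down, was higher. PKLR, a pyruvate kinase that works against PEPCK and was also named after its values were seen, lay in the other direction without overlap. It was 3.98, 20.8 and 12.7 FPKM in CG and 31.0, 55.3 and 40.2 FPKM in HG, a log2 fold change of 1.88 that did not pass (limma adjusted p = 0.0521). gck, the liver glucokinase that works against glucose-6-phosphatase, did not pass and was named after its values were seen. It was 317 FPKM in HG-3 and between 0.680 and 19.8 FPKM in the other 5 libraries, and HG-3 was the HG library with the highest g6pca.2.

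The list of regulators of gluconeogenic transcription was lower at 14 and higher at 1 of 42 tested loci (median -0.64). Over all tested loci, 12.1% were lower and 8.27% higher. The 14 are not all regulators, since the list also counts genes that do not themselves regulate transcription. Among the 14 were every tested igfbp1b and igfbp1a locus, a locus of INSR, and irs2b, the last pair being insulin signaling genes. The igfbp1a loci, the tested locus of ppargc1a and a locus of crtc3 (MSTRG.20520) averaged under 1 FPKM in HG. They could be tested only if higher in CG and add no support to the count of 14. nr0b2, whose mammalian counterpart represses gluconeogenic genes, was 78.4, 86.3 and 67.4 FPKM in CG and 1.07, 2.29 and 1.84 FPKM in HG, a log2 fold change of -4.86 (SE 0.25, limma adjusted p = 0.000539). Activators were lower too, among them ppargc1a at its tested locus (-1.21, limma adjusted p = 0.0426), foxo1a (-1.63, 0.0370) and CRTC2 (-0.74, 0.0324). hnf4a (-0.42, limma adjusted p = 0.205) and cebpa (0.11, 0.863) did not pass. These activators were named after their values were seen. The insulin-like growth factor binding protein genes igfbp1b (-6.02 and -5.66 at its loci) and igfbp1a (-3.05, -3.50 and -1.43 at its loci), which insulin lowers in mammals, were lower as well. The higher regulator was a locus of foxa2 (MSTRG.8672, 0.84), a liver transcription factor, while the other foxa2 locus (MSTRG.8673) overlapped between the groups, with a log2 fold change of -0.28 (limma adjusted p = 0.607). These lists hold activators and repressors together, and they were assembled with earlier results of these data known. Without CG-1 the lower counts were 2 for substrate entry, 5 for the reversible steps, 7 for the opposing steps and 10 for the regulators. The higher calls of got2a (limma adjusted p = 0.0931), pgam1a (0.0503) and tigara (0.107) ended without that library, while those of gpd1a and foxa2 held. Under median of ratios scaling the opposing steps had 3 higher and 9 lower loci.

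**Figure D4:**
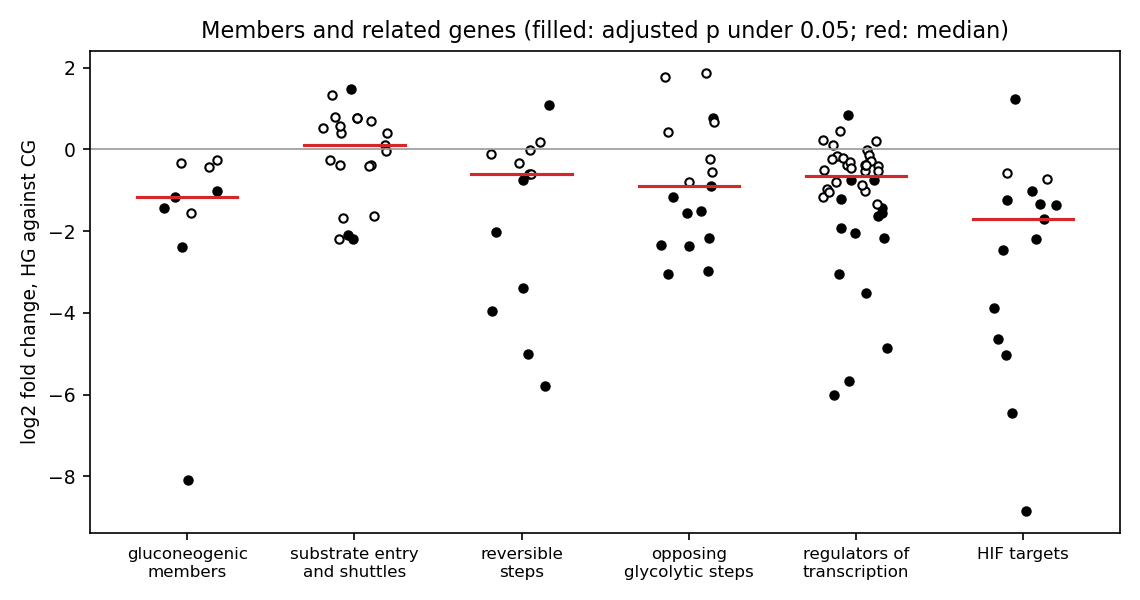
log2 fold change, HG against CG, of the 9 members and of the tested loci in 5 lists of related genes, with filled circles for an adjusted p under 0.05, open circles for the rest and a red line at each median. The members range from -8.08 to -0.25, and the median lies below 0 in every list except substrate entry and shuttles (0.10).

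Hepatocyte markers were abundant in all libraries of this liver series, at a summed 55434 to 76180 FPKM in CG and 73912 to 87153 FPKM in HG. Of 31 tested marker loci, 9 were higher, 3 lower and 19 did not pass (median 0.72). For this and the marker counts that follow, the shares over all tested loci were 8.27% higher and 12.1% lower. A marker averaging under 1 FPKM in a group could be tested only if higher in the other and adds no support to these counts. Such markers that passed included apoea and hbbe2, low in HG, and a locus of rhag (MSTRG.8828), low in CG. The markers that passed went both ways, as with 2 abundant ones named after their values were seen. apoa1a was higher (log2 fold change 1.35, limma adjusted p = 0.00400) and hpx was lower (-1.53, 0.00410). Whether the share of hepatocytes differed between the groups was not tested. Exocrine pancreas, which lies within the liver of many bony fishes, left a signal that moved with the groups: 5 of 7 tested markers passed as lower in HG and none as higher (2 lower without CG-1 and 4 with median of ratios scaling), with summed FPKM from 513 to 1098 in CG and from 57.2 to 260 in HG. A low locus of pla2g1b (MSTRG.8110) went the other way without overlap, at 1.73 to 2.42 FPKM in CG and 3.03 to 11.3 FPKM in HG. Its log2 fold change of 1.16 did not pass (limma adjusted p = 0.0855). Within CG, summed pancreas markers were 513, 629 and 1098 FPKM in CG-1, CG-2 and CG-3. The order of pck1 was the reverse, whereas pck2, like the pancreas sum, was highest in CG-3 (695 FPKM). The part of pancreas tissue in the results for the members was not tested. Kidney tubule markers, of interest since kidney also makes glucose, summed to 3.47 to 6.16 FPKM in CG and 3.15 to 6.47 FPKM in HG, and intestinal markers to 3.28 to 5.43 and 3.32 to 4.52 FPKM. Skeletal muscle markers reached at most 1.36 FPKM in sum. Leukocyte markers, at 103 to 260 FPKM in CG and 220 to 338 FPKM in HG, passed at none of 9 loci, and erythrocyte markers, at 19.2 to 69.1 and 26.6 to 51.9 FPKM, passed at 1 higher and 1 lower of 5 loci.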

How the data were processed

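The authors made the deposited table from liver RNA-seq reads, with HISAT and StringTie named in the submitters' processing notes, and deposited FPKM values per locus for 6 libraries. Versions of these tools and the genome build are not given in the sources used here. The table gives no read counts per locus, so no count test was run. Read totals per library are given in the paper but were not used here. Relative depth was taken as the inverse of the commonest ratio of FPKM to CG-1 among loci under 0.06 FPKM in both libraries, with 58 to 72 loci at each peak. No column was left unused, so 0 columns of sample values were left out. Members, gene lists and tests were chosen with earlier results of these data known. Values were used as log2(FPKM + 1), and loci averaging 1 FPKM or more were fitted with limma 3.58.1 (trend of variance over mean, two-sided, Benjamini-Hochberg over all tested loci) in R 4.3.3. The script was tested on simulated data. Single values per library, such as the PEPCK ratio, were compared by exact permutation. Named genes were every member, the pyruvate carboxylase and slc37a4 loci, in each list up to 4 loci with the smallest adjusted p in each direction, the 3 HIF targets of highest level, and the 3 loci most like each member above 10 FPKM. Alternatives were a pseudocount of 0.1 or 0.5, a minimum of 10 FPKM or none, library scaling (median of ratios, upper quartile, quantiles), limma with no trend or with a robust prior, an ordinary linear model as in Ballgown, a replicate block and leaving out each library. The linear model as in Ballgown also held a covariate of summed expression per library. Counts in the gene lists without CG-1 and with median of ratios scaling were added after seeing the data. Of the 7 member symbols, 5 matched symbols in a RefSeq table of Nile tilapia genes (assembly O_niloticus_UMD_NMBU), which was used only for names and neighbours. Figures were drawn with Python 3.11.15 and matplotlib 3.10.9.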

Additional observations from a re-analysis of the deposited data

How the results depend on the processing

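The sign of every member and of the PEPCK ratio stayed the same under all alternatives, except that fbp1a (MSTRG.7067) turned to 0.13 without CG-3. pck1 and pck2 passed under 16 of 17 alternatives, and their calls ended only under the Ballgown-style model (log2 fold change -7.42 and -2.52), in which fbp1b (-1.17) and g6pca.2 (-1.07 at MSTRG.11370, -1.22 at MSTRG.11371) did not pass either and which called 2 DE genes, with 3583 loci at an unadjusted p under 0.05. fbp1b passed under 8 of 17, g6pca.2 under 5 of 17 (MSTRG.11370) and 5 of 16 (MSTRG.11371), and g6pca.1 and fbp1a under none. With no minimum, values stayed -1.15, -1.42 and -1.02 for these loci but did not pass. Median of ratios scaling gave -0.95, -1.22 and -0.86, upper quartile scaling -0.99, -1.26 and -0.89, and quantile normalization -1.40 for MSTRG.11370 and -0.89 for MSTRG.11371, none of which passed. MSTRG.11370 also missed without trend (-1.42). With replicate number as a block, values were again -1.15, -1.42 and -1.02 but did not pass (adjusted p = 0.0658, 0.0771 and 0.0689 from limma), while pck1 (0.00740) and pck2 (0.0151) did. Deviations of same-numbered libraries correlated at 0.037, -0.10 and -0.081, so the numbers were not taken to pair the libraries. Leaving out each library in turn gave -1.29 to -0.89 for fbp1b, -1.76 to -1.11 for MSTRG.11370, -1.22 to -0.82 for MSTRG.11371, -2.22 to -1.22 for fbp2, -0.71 to 0.13 for fbp1a (MSTRG.7067), and 1583 to 2352 DE genes, against 2722 with all libraries, 1960 with the replicate block and 1143 with a mean of at least 10 FPKM. The ratio difference ran from -8.76 to -4.77. Read counts per locus were not available, so the values of pck1 and fbp2 in HG carry no counting error here.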

Other observations

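pck1 was not alone in standing out in CG-1. Of 3319 loci averaging 10 FPKM or more, 53 were at least 4-fold above both other CG libraries in CG-1, against 31 in CG-2 and 26 in CG-3. In the other direction, 59 loci were undetected in CG-1 or at least 4-fold below both other CG libraries. A locus undetected in CG-1 was counted even where another CG library did not detect it either. Low loci were not counted for CG-2 or CG-3, so the 59 cannot show that CG-1 departed downwards. The genes given here were picked from the 53 after their values were seen, with no list or test behind the choice. dnajb1b, a partner of Hsp70, was 270, 36.1 and 26.2 FPKM in CG and 2.08, 3.09 and 2.82 FPKM in HG. hspa4a, of the Hsp110 family, was 235, 26.2 and 20.7 FPKM in CG and 1.33, 1.15 and 2.69 FPKM in HG. bag3, a co-chaperone, was 145, 20.7 and 18.3 FPKM in CG and 1.54, 1.96 and 1.33 FPKM in HG. hsp90aa1.1, an Hsp90 gene, was 153, 32.2 and 21.6 FPKM in CG and 0.0138, 0.0970 and 0.0967 FPKM in HG. dnajb1a (limma adjusted p = 0.115), DNAJA4 (0.0520), hspbp1 (0.0760) and CDC37 (0.150) were high in CG-1 too but did not pass between the groups. As with pck1, CG-1 was the highest library and every HG library lay below every CG library for dnajb1b, hspa4a, bag3 and hsp90aa1.1. Every HG library lay below every CG library at 27.0% of all tested loci. Of the 53 loci high in CG-1, 19 passed as lower in HG, pck1 among them, and over all tested loci 12.1% did. That share covers loci averaging 1 FPKM or more, whereas the 53 came from loci averaging 10 FPKM or more, so the sets are unlike. The 53 were selected by a high value in a CG library, which by itself favours a lower HG. The 19 are therefore a description only. Some of the 53 passed as higher, such as si:xx-by187g17.1 (log2 fold change 3.51, limma adjusted p = 0.0430).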
